A study of Homo sapiens with 9 samples.

Results

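The genes described here encode the proteasome: all protein-coding genes of the table whose symbol begins with PSMA, PSMB, PSMC, PSMD, PSME, PSMF or PSMG followed by a digit. There were 49 such genes among 57905 genes in the table, of which 19263 were protein-coding. Of the 49, 47 encode subunits, assembly chaperones, activators or an inhibitor of the proteasome. The other 2, PSMC3IP and PSME3IP1, match the rule by symbol and were placed in none of these classes. Symbols were matched by Ensembl identifier, and the structural subunit PSMB3 was not analysed here because no identifier of the table was paired with that symbol. The rule matched names alone and used no measured value, but it was chosen with earlier results of these data known.

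RNA was sequenced from KYSE180, a line of human esophageal squamous cell carcinoma that the series title calls KDM6A-deficient. The libraries formed 3 groups of 3: shEZH2#1 and shEZH2#3, each carrying a short hairpin RNA against the histone methyltransferase EZH2, and shluc, carrying a hairpin against luciferase. Cells of all 9 libraries had received 6 Gy of ionizing radiation, so no unirradiated baseline was analysed here. The genotype label gives EZH2 knockout for the hairpin groups and WT for shluc, while titles and design text speak of shEZH2 and shluc lines. Whether each line was a pool or 1 clone is not given in the sources used here. Nothing says that replicates came from separate cultures, so the p-values cover only library-to-library spread, possibly of technical origin.

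Library totals ran from 14958011 to 21152006 estimated counts. EZH2 (ENSG00000106462) had 11.6, 11.4 and 7.28 CPM (counts scaled to library size) in shEZH2#1 libraries, 9.67, 11.0 and 9.12 CPM in shEZH2#3 libraries, and 18.4, 20.1 and 19.5 CPM in shluc libraries. The log2 fold change was -0.94 ± 0.18 (adjusted p = 0.00163) with shEZH2#1 and -0.96 ± 0.18 (adjusted p = 0.000433) with shEZH2#3, so transcript remained in both hairpin groups. Of 8 squamous epithelium markers, KRT17 averaged 1270 CPM over the libraries, while KRT14, KRT6A, SOX2, DSG3 and PKP1 did not pass the filter on low counts. TP63 reached at most 1.03 CPM and KRT5 at most 0.718 CPM. Most of the defining markers of the labelled cell type were therefore near 0. In RNA from bulk cells, fewer cells of a type and less RNA per cell cannot be told apart.

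The proteasome degrades proteins tagged with ubiquitin. Its 20S core is a barrel of stacked rings: outer rings of PSMA (alpha) subunits gate the entrance and inner rings of PSMB (beta) subunits hold the proteolytic sites. The 19S regulatory particle caps the core, with PSMC ATPases that unfold the substrate and PSMD subunits that bind, deubiquitinate and position it. Interferon exchanges the constitutive catalytic subunits for PSMB8, PSMB9 and PSMB10, giving the immunoproteasome, which together with the PSME1/PSME2 activator shapes the peptides loaded on MHC class I. The transcription factor NFE2L1 is known to raise proteasome subunit genes together when proteasome activity is low.

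Among the 49 genes, 47 passed the filter on low counts that left 13252 genes in the fit. The testis-specific alpha subunit PSMA8 had 0 counts in all 9 libraries and the thymus-specific beta subunit PSMB11 had 1, which allows a level of up to 0.0182 CPM over the libraries together (3 counts, counting error only). A gene was called when its adjusted p in edgeR's quasi-likelihood test was below 0.05, with Benjamini-Hochberg adjustment over all 13252 genes. Fold changes are on the log2 scale with their standard error (SE), from 3 libraries per group.

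With shEZH2#1, 4 of 47 tested genes were called (8.51%), against 19.0% of all tested genes: PSMB9 and PSMB10 rose, and PSME3 and PSMG2 fell. With shEZH2#3, 22 of 47 were called (46.8%), against 44.2% of all tested genes, so the overall share lay near the background. Its direction was uneven: 19 of 47 fell (40.4%), against 19.8% of all genes, and 3 rose (6.38%), against 24.4% of all genes. The 3 that rose were PSME1, PSMF1 and PSMG3. The median log2 fold change over the 47 genes was -0.06 with shEZH2#1 and -0.24 with shEZH2#3, beside -0.07 and -0.01 over all tested genes. PSMG2, an assembly chaperone of the alpha ring, was the only gene called in the same direction with both hairpins. These comparisons share the 3 shluc libraries and are therefore not independent of each other. The 2 most abundant genes without a symbol held 15.8 to 22.6% of counts in shEZH2#1 libraries. They held 5.97 to 11.6% in shEZH2#3 libraries and 6.96 to 9.28% in shluc libraries. With these 2 genes left out of the library totals, 3 genes were called higher and 1 lower with shEZH2#1. Without shluc replicate 3 the calls with shEZH2#1 were 7 higher and 1 lower.

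**Figure D1:**
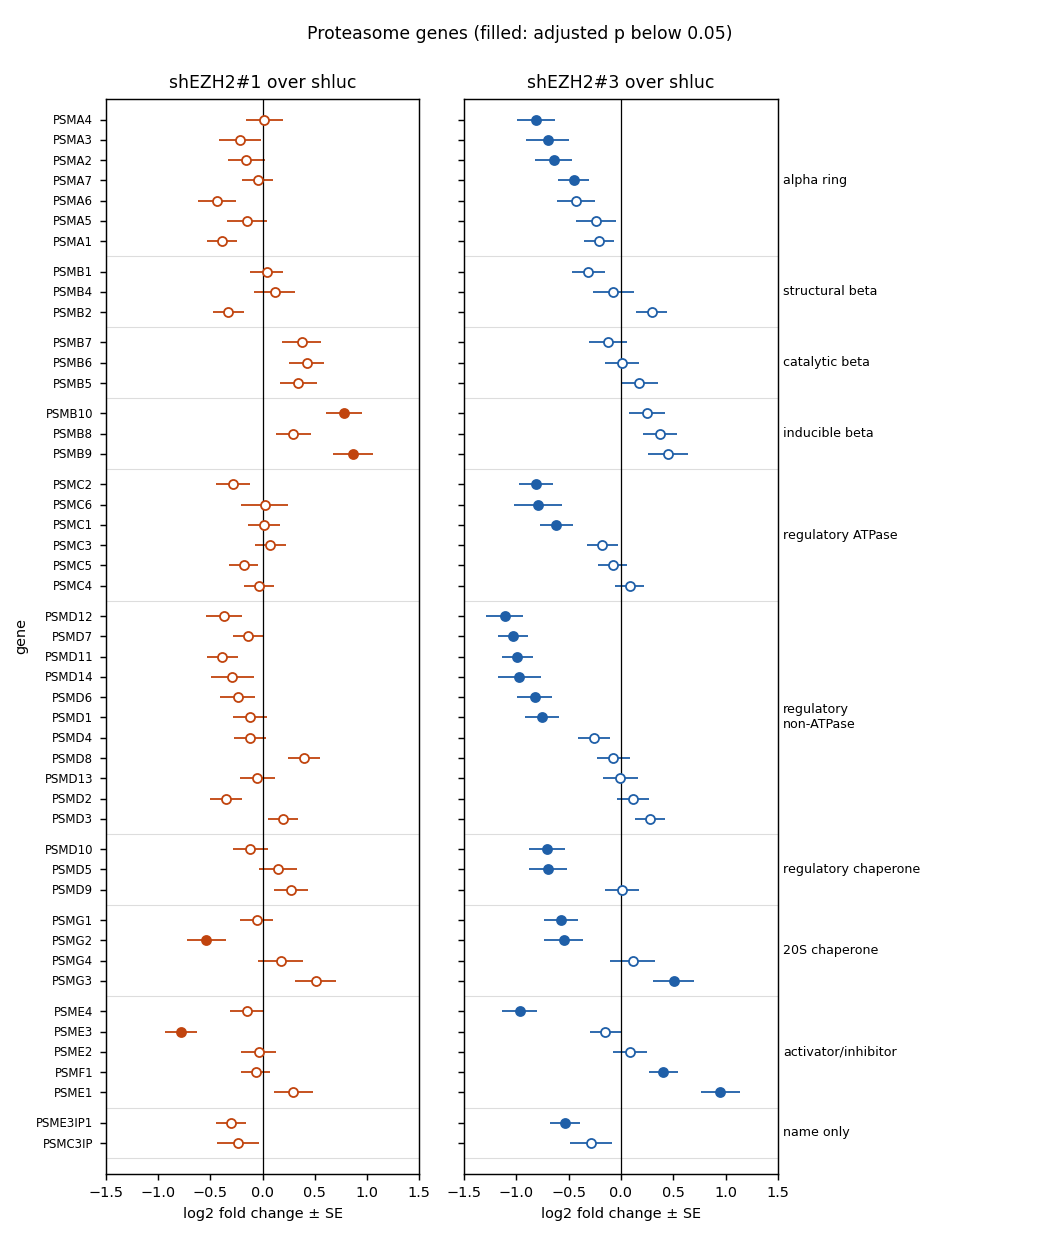
Log2 fold change (x axis, bars give the SE) of the 47 tested proteasome genes (y axis, grouped by role) for shEZH2#1 over shluc on the left and shEZH2#3 over shluc on the right, with filled points for adjusted p below 0.05. The left panel has 4 filled points, and the right panel has 22, of which 19 lie left of 0 and most belong to the alpha ring, the 19S particle and the chaperones.

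The inducible catalytic subunits and the activator pair PSME1 and PSME2 are the interferon-responsive members. Of these, the promoters of PSMB9, PSMB10, PSME1 and PSME2 are shown, and that of PSMB8 is not. The promoter of TAP1, the peptide transporter gene that starts beside PSMB9, is also shown. PSMD7 is shown as a 19S subunit that fell with shEZH2#3. The sequences are RefSeq promoters of build GRCh38.p14, from 250 bases before to 50 after the start of the gene, written 5′ to 3′ on the strand of the gene. They lie at chr6:32853942-32854241 (plus strand) for PSMB9, chr6:32853655-32853954 (minus) for the first of 2 TAP1 promoters, chr16:67936801-67937100 (minus) for PSMB10, chr14:24135944-24136243 (plus) for PSME1, chr14:24146561-24146860 (minus) for PSME2 and chr16:74296564-74296863 (plus) for PSMD7. Capitals mark matches on either strand to GAAANNGAAA (the interferon-stimulated response element, ISRE), TTCNNNGAA (the gamma-activated site, GAS), TGANNNNGC (the antioxidant response element, ARE) or CCAAT.
PSMB9: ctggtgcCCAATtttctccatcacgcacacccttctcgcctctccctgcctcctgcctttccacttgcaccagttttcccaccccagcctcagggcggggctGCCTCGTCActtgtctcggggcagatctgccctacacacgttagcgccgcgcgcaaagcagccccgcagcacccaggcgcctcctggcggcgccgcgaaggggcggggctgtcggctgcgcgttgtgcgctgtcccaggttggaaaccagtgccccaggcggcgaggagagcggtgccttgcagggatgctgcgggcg
TAP1: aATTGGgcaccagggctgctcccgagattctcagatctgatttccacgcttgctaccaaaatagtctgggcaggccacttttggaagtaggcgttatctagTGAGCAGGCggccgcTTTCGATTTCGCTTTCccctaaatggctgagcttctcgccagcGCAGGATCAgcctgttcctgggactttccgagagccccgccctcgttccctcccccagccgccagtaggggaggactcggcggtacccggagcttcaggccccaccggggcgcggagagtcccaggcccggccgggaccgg
PSMB10: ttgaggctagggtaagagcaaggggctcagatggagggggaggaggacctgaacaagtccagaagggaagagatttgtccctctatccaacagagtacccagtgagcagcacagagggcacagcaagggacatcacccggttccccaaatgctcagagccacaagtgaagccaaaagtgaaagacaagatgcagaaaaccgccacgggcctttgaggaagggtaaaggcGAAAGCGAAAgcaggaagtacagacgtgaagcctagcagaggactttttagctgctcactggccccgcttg
PSME1: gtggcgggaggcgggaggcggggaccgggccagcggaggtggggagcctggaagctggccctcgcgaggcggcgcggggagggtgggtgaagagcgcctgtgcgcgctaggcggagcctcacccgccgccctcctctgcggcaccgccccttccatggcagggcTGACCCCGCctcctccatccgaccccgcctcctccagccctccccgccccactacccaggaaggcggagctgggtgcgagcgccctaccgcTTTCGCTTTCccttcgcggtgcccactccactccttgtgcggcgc
PSME2: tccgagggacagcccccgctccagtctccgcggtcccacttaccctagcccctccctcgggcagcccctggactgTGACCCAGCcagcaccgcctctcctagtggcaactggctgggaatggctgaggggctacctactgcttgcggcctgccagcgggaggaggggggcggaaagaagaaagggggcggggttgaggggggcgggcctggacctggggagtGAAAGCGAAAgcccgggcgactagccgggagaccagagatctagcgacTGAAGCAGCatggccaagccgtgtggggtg
PSMD7: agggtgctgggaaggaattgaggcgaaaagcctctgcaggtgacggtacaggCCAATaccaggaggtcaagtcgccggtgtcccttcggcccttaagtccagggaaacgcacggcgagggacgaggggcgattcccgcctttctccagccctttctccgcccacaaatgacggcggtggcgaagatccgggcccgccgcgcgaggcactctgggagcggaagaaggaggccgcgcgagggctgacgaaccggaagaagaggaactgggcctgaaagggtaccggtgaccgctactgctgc

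GAAANNGAAA was found in 3.57% of 35116 promoters of this table and in 7 of the 54 promoters of proteasome genes (13.0%), belonging to PSMA4, PSMB4, PSMB8, PSMB10, PSME1, PSME2 and PSMG4. Of the 49 genes, 43 had a promoter in the table. Counted from 0 at the start base to the first base of the match, it lay at -21 in PSMB10, at -28 in PSME2, at 5 in PSME1 and at -4 in PSMB8. The window of PSMB9 held neither the ISRE nor the GAS letters, and that of TAP1 held overlapping ISRE matches at -134 and -128. The starts of PSMB9 and TAP1 are 488 bases apart on opposite strands, and their windows share 13 bases. TTCNNNGAA was found in 7.66% of all promoters and in 14.8% of those of proteasome genes, TGANNNNGC in 41.8% and 61.1%, and CCAAT in 34.6% and 42.6%. A match describes these letters only and shows no binding.

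With shEZH2#1, PSMB9 and PSMB10 rose and PSMB8 did not pass the test, while none of these 3 inducible catalytic subunits passed it with shEZH2#3. PSMB9 (ENSG00000240065) is the inducible subunit that takes the place of PSMB6. It had 106, 102 and 109 CPM in shEZH2#1 libraries and 80.5, 73.9 and 83.3 CPM in shEZH2#3 libraries. In shluc libraries it had 60.5, 37.0 and 76.4 CPM. Each shEZH2#1 library lay above each shluc library, whereas the shEZH2#3 libraries overlapped shluc through the highest control. That gave log2 fold changes of 0.87 ± 0.19 (adjusted p = 0.00404) with shEZH2#1 and 0.45 ± 0.19 (adjusted p = 0.0599) with shEZH2#3. PSMB10 (ENSG00000205220), the inducible trypsin-like-site subunit, had 81.7, 86.1 and 84.5 CPM in shEZH2#1 libraries, 55.3, 60.7 and 59.2 CPM in shEZH2#3 libraries, and 52.0, 34.1 and 61.1 CPM in shluc libraries. Here too the shEZH2#1 group stood apart from shluc and the shEZH2#3 group did not. Its log2 fold change was 0.78 ± 0.17 (adjusted p = 0.00438) with shEZH2#1 and 0.25 ± 0.17 (adjusted p = 0.242) with shEZH2#3, and it was 0.53 ± 0.17 (adjusted p = 0.0318) for shEZH2#1 over shEZH2#3.

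PSMB8 (ENSG00000204264), the inducible chymotrypsin-like-site subunit, had 263, 248 and 244 CPM in shEZH2#1 libraries, 253, 245 and 299.8 CPM in shEZH2#3 libraries, and 221, 156 and 240.0 CPM in shluc libraries. Both hairpin groups lay above all shluc libraries, by little over the highest of them. For PSMB8 the values were 0.29 ± 0.17 (adjusted p = 0.227) with shEZH2#1 and 0.37 ± 0.17 (adjusted p = 0.073) with shEZH2#3, neither called. The second shluc library was the lowest of the 9 for all 3 genes. Without that library and the first shEZH2#3 library, a choice made after the data were seen, the log2 fold change with shEZH2#1 was 0.62 for PSMB9 (adjusted p = 0.00164) and 0.57 for PSMB10 (adjusted p = 0.00259). With shEZH2#3 it was 0.20 and 0.08, against 0.45 and 0.25 with all libraries, and without the third shluc library both were called, at 0.70 and 0.44. After a correction for the GC content and length of transcripts, PSMB10 was called lower with shEZH2#3, at -0.38 (adjusted p = 0.0144), the opposite direction to the uncorrected value. The corrected values with shEZH2#3 were near 0 and not called for both other inducible subunits, at -0.02 (adjusted p = 0.931) for PSMB9 and -0.02 (adjusted p = 0.917) for PSMB8, against 0.45 and 0.37 without correction. PSMB8 with shEZH2#1 stood at 0.10 after correction (adjusted p = 0.594). PSMB9 lies against PSMB8 and TAP1 on the opposite strand, with gene models that overlap. The strand setting of the counting is not given in the sources used here, so reads of these neighbours may not be fully separated.

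**Figure D2:**
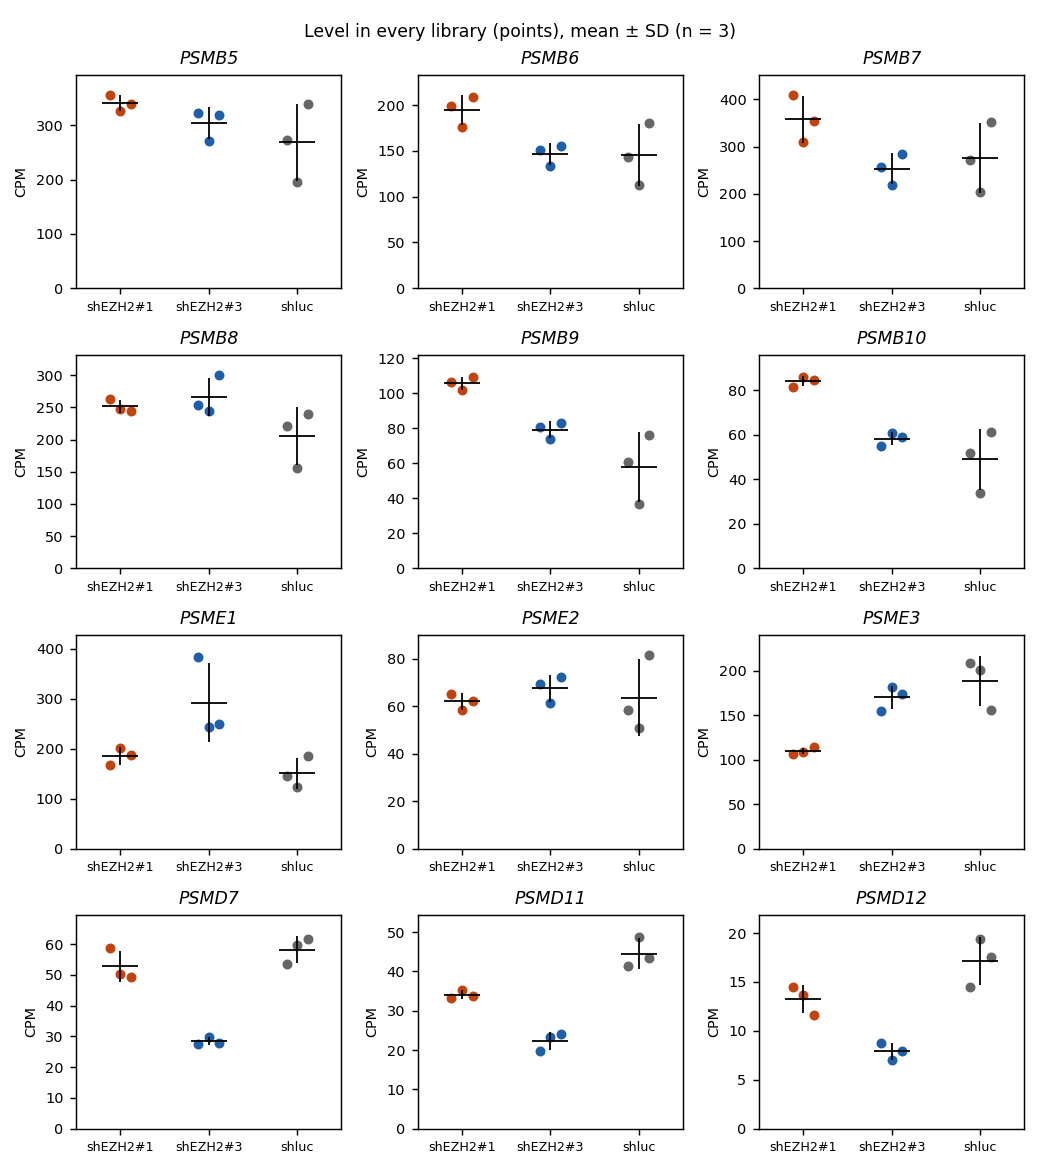
CPM (y axis, from 0) of 12 proteasome genes in each library, by group on the x axis (shEZH2#1, shEZH2#3, shluc); black marks give the mean ± SD of 3 libraries. PSMB9 and PSMB10 lie highest in shEZH2#1, PSME1 highest in shEZH2#3, PSME3 lowest in shEZH2#1, and PSMD7, PSMD11 and PSMD12 lowest in shEZH2#3.

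None of the 3 constitutive catalytic subunits passed the test with either hairpin. PSMB5, which carries the chymotrypsin-like site that proteasome inhibitor drugs bind, had 356, 327 and 339.5 CPM in shEZH2#1 libraries, 322, 271 and 319.5 CPM in shEZH2#3 libraries, and 273, 196 and 338 CPM in shluc libraries. PSMB6, with the caspase-like site, had 199, 176 and 208 CPM in shEZH2#1 libraries, 151, 133 and 155 CPM in shEZH2#3 libraries, and 143, 113 and 180.2 CPM in shluc libraries. PSMB7, with the trypsin-like site, had 408, 310.0 and 354 CPM in shEZH2#1 libraries, 256, 219 and 285 CPM in shEZH2#3 libraries, and 272, 204 and 352 CPM in shluc libraries. In all 3 genes the second shluc library was the lowest of the 9, and the shEZH2#1 libraries overlapped the shluc range. Their log2 fold changes were 0.34 ± 0.17 (adjusted p = 0.182), 0.42 ± 0.17 (adjusted p = 0.0817) and 0.37 ± 0.19 (adjusted p = 0.169) with shEZH2#1. With shEZH2#3 they were 0.18 ± 0.17 (adjusted p = 0.417), 0.01 ± 0.17 (adjusted p = 0.963) and -0.12 ± 0.18 (adjusted p = 0.603). PSMB6 was called lower with shEZH2#3 after the GC content and length correction, at -0.49 (adjusted p = 0.009), where the uncorrected value was near 0.

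Since each inducible subunit takes the place of 1 constitutive subunit, their ratio within a library was also compared. The PSMB9/PSMB6 ratio of counts was 0.534, 0.576 and 0.523 in shEZH2#1 libraries, 0.533, 0.555 and 0.537 in shEZH2#3 libraries, and 0.423, 0.329 and 0.424 in shluc libraries. Both hairpin groups lay above all controls, at 1.40-fold for shEZH2#1 and 1.39-fold for shEZH2#3 over shluc. The PSMB10/PSMB7 ratio was 0.200, 0.278 and 0.239 in shEZH2#1 libraries, 0.216, 0.278 and 0.208 in shEZH2#3 libraries, and 0.191, 0.168 and 0.174 in shluc libraries. It again stood apart from shluc, at 1.34-fold with shEZH2#1 and 1.31-fold with shEZH2#3. The PSMB8/PSMB5 ratio was 0.739, 0.757 and 0.720 in shEZH2#1 libraries, 0.786, 0.905 and 0.938 in shEZH2#3 libraries, and 0.810, 0.792 and 0.709 in shluc libraries. Neither hairpin group separated from shluc in that ratio, at 0.960-fold and 1.14-fold.

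Groups of 3 allow an exact two-sided permutation p of no less than 0.1, so no ratio could pass 0.05. All 4 hairpin comparisons of PSMB9/PSMB6 and PSMB10/PSMB7 with shluc gave that smallest p (exact permutation test, p = 0.1, adjusted p = 0.15 over 12 tests of 4 ratios). Shared scaling cancels in a ratio, but the GC content of each pair differs and was not corrected in it. After GC content and length correction the log2 fold changes of PSMB10 and PSMB7 were 0.36 and 0.32 with shEZH2#1. With shEZH2#3 they were -0.38 and -0.24, so PSMB10 no longer rose over PSMB7. For PSMB9 and PSMB6 they were 0.63 and 0.16 with shEZH2#1, and -0.02 and -0.49 with shEZH2#3.

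**Figure D3:**
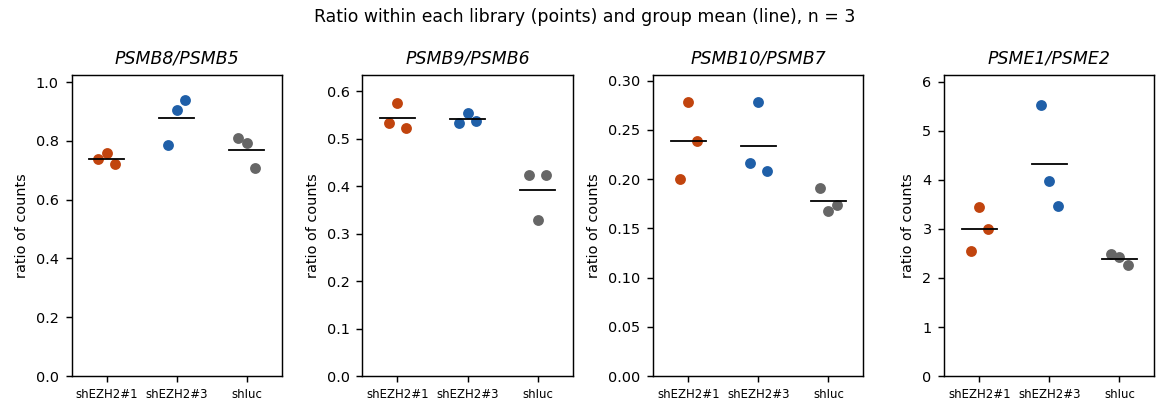
Within-library ratios of counts (y axis, from 0) for 3 pairs of inducible over constitutive catalytic subunits and for PSME1 over PSME2, by group on the x axis; points are libraries and lines are means of 3. PSMB9/PSMB6 lies between 0.523 and 0.576 in all 6 hairpin libraries and at 0.424 or below in shluc, whereas PSMB8/PSMB5 overlaps between groups.

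In the alpha ring, no gene was called with shEZH2#1. With shEZH2#3, 4 of 7 tested genes fell (57.1%, against 19.8% of all tested genes): PSMA2, PSMA3, PSMA4 and PSMA7. The class median log2 fold change was -0.15 with shEZH2#1 and -0.45 with shEZH2#3. After GC content and length correction only PSMA7 was called lower with shEZH2#3, and the class median was -0.20. With shEZH2#1 only PSMA1 was then called lower, at a class median of -0.17. PSMA4 had 29.0, 27.5 and 21.1 CPM in shEZH2#1 libraries, 16.7, 14.4 and 12.7 CPM in shEZH2#3 libraries, and 19.9, 26.8 and 30.1 CPM in shluc libraries. All shEZH2#3 libraries lay below all shluc libraries, while the shEZH2#1 libraries lay within the control range. The log2 fold change of PSMA4 was -0.81 ± 0.18 (adjusted p = 0.00182) with shEZH2#3 and 0.02 ± 0.18 (adjusted p = 0.96) with shEZH2#1. PSMA2 had 32.5, 27.7 and 23.3 CPM in shEZH2#1 libraries, 18.5, 18.9 and 22.0 CPM in shEZH2#3 libraries, and 24.6, 30.5 and 38.0 CPM in shluc libraries, with all shEZH2#3 libraries below shluc. It changed by -0.64 ± 0.18 (adjusted p = 0.0071) with shEZH2#3. For PSMA3 and PSMA7 the log2 fold changes with shEZH2#3 were -0.70 ± 0.20 (adjusted p = 0.0101) and -0.45 ± 0.15 (adjusted p = 0.0205). Reads of PSMA3 and PSMA2 may be shared with the overlapping opposite-strand genes PSMA3-AS1 and MRPL32. PSMA1, PSMA5 and PSMA6 were not called with either hairpin, at log2 fold changes between -0.43 and -0.15.

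The 3 structural beta subunits PSMB1, PSMB2 and PSMB4 were not called with either hairpin against shluc. PSMB2, one of them, had 124, 142 and 135 CPM in shEZH2#1 libraries, 239, 201 and 175 CPM in shEZH2#3 libraries, and 174, 156 and 172 CPM in shluc libraries. The shEZH2#1 libraries lay below all shluc libraries and the shEZH2#3 libraries above them. Neither difference from shluc was called, at -0.33 ± 0.15 (adjusted p = 0.137) and 0.29 ± 0.15 (adjusted p = 0.117), but the difference of shEZH2#1 from shEZH2#3 was, at -0.62 ± 0.15 (adjusted p = 0.00536). Corrected for GC content and length, PSMB2 was called higher with shEZH2#3, at 0.74 (adjusted p = 0.0017).

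The naming rule found 6 ATPases and 11 non-ATPase subunits of the 19S particle. Of these 17, 9 fell (52.9%) and none rose with shEZH2#3, against 19.8% and 24.4% of all tested genes. The median over the 17 was -0.62 on the log2 scale. The mean level in shluc was at most 58.2 CPM (PSMD7) among the 9 that fell and at least 134.5 CPM (PSMD13) among the rest. The summed level changed little with shEZH2#3, to 0.909-fold of shluc for ATPases and 0.955-fold for non-ATPase subunits. With shEZH2#1, none of the 17 was called and the median was -0.12. The proteasome-associated genes ADRM1 and SEM1 lie outside the naming rule and are not among the 17. ADRM1 was called higher with shEZH2#1, at 0.62 ± 0.17 (adjusted p = 0.0151). That call was lost after GC content and length correction, at 0.12 (adjusted p = 0.344). SEM1 was not called with either hairpin. Among the ATPases of the unfolding ring, PSMC1, PSMC2 and PSMC6 fell with shEZH2#3. PSMC1 had 20.3, 19.4 and 20.9 CPM in shEZH2#1 libraries, 13.0, 14.2 and 12.1 CPM in shEZH2#3 libraries, and 17.7, 21.4 and 21.1 CPM in shluc libraries. PSMC2 had 20.3, 17.1 and 16.4 CPM in shEZH2#1 libraries, 11.6, 12.8 and 12.9 CPM in shEZH2#3 libraries, and 18.4, 23.4 and 23.8 CPM in shluc libraries. PSMC6 had 10.2, 8.15 and 6.17 CPM in shEZH2#1 libraries, 5.61, 4.30 and 4.09 CPM in shEZH2#3 libraries, and 5.99, 9.65 and 8.62 CPM in shluc libraries. In all 3 genes every shEZH2#3 library lay below every shluc library, and the shEZH2#1 libraries overlapped shluc. The log2 fold changes with shEZH2#3 were -0.62 ± 0.16 (adjusted p = 0.00393), -0.81 ± 0.16 (adjusted p = 0.000733) and -0.79 ± 0.23 (adjusted p = 0.0101). The call of PSMC6 was lost without shluc replicate 2 (-0.65, adjusted p = 0.0555). A pseudogene copy, PSMC1P1, is counted apart and averaged 0.929 CPM in shEZH2#1, 0.561 CPM in shEZH2#3 and 0.869 CPM in shluc, so shared reads of PSMC1 are uncertain. The other ATPases PSMC3, PSMC4 and PSMC5 had log2 fold changes between -0.18 and 0.08 with both hairpins, none called.

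Among the non-ATPase subunits, PSMD1, PSMD6, PSMD7, PSMD11, PSMD12 and PSMD14 fell with shEZH2#3. PSMD7 (ENSG00000103035), the inactive partner of the deubiquitinase PSMD14 in the lid of the particle, had 58.7, 50.4 and 49.4 CPM in shEZH2#1 libraries, 27.5, 29.9 and 27.9 CPM in shEZH2#3 libraries, and 53.4, 59.6 and 61.7 CPM in shluc libraries. The shEZH2#3 libraries lay at about the same level, below every other library, and shEZH2#1 overlapped shluc. Its log2 fold change was -1.03 ± 0.14 (adjusted p = 3.43e-05) with shEZH2#3 and -0.14 ± 0.14 (adjusted p = 0.518) with shEZH2#1. PSMD11, a lid scaffold subunit, had 33.1, 35.3 and 33.8 CPM in shEZH2#1 libraries, 19.7, 23.4 and 24.0 CPM in shEZH2#3 libraries, and 41.3, 48.9 and 43.4 CPM in shluc libraries. All libraries of both hairpins lay below shluc, with shEZH2#3 the lower. PSMD11 stood at -0.99 ± 0.15 (adjusted p = 6.17e-05) with shEZH2#3 and -0.38 ± 0.15 (adjusted p = 0.0693) with shEZH2#1, the second not called.

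PSMD12, another lid scaffold, had 14.5, 13.7 and 11.6 CPM in shEZH2#1 libraries, 8.75, 7.05 and 7.96 CPM in shEZH2#3 libraries, and 14.5, 19.4 and 17.5 CPM in shluc libraries. Its 3 shEZH2#3 libraries were the lowest of the 9, and the log2 fold change of -1.11 ± 0.17 (adjusted p = 9.73e-05) was the most negative among the proteasome genes with that hairpin. PSMD14, which removes ubiquitin chains from the substrate, had 12.0, 11.4 and 9.78 CPM in shEZH2#1 libraries, 7.32, 5.42 and 7.90 CPM in shEZH2#3 libraries, and 10.5, 12.6 and 17.6 CPM in shluc libraries, with all shEZH2#3 libraries below all others. Its log2 fold change with shEZH2#3 was -0.97 ± 0.21 (adjusted p = 0.00113). PSMD1, a large scaffold of the base, had 22.4, 20.8 and 18.3 CPM in shEZH2#1 libraries, 13.3, 13.7 and 12.7 CPM in shEZH2#3 libraries, and 19.7, 26.8 and 20.5 CPM in shluc libraries. PSMD6, a lid subunit, had 18.4, 18.4 and 16.7 CPM in shEZH2#1 libraries, 13.2, 11.0 and 11.4 CPM in shEZH2#3 libraries, and 16.7, 24.4 and 21.9 CPM in shluc libraries. In both genes shEZH2#3 stood below shluc without overlap, and the log2 fold changes were -0.76 ± 0.16 (adjusted p = 0.00139) and -0.83 ± 0.17 (adjusted p = 0.00087).

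PSMD2, the base subunit that docks ubiquitin-like shuttle proteins, was not called with either hairpin against shluc and had 326, 332 and 364 CPM in shEZH2#1 libraries, 415, 507 and 486 CPM in shEZH2#3 libraries, and 492, 424 and 382 CPM in shluc libraries. The shEZH2#1 libraries were below all others, yet the difference from shluc was not called (-0.35 ± 0.15, adjusted p = 0.121). PSMD8, a lid subunit, had 279.7, 242 and 282 CPM in shEZH2#1 libraries, 199, 185 and 196 CPM in shEZH2#3 libraries, and 226, 162 and 223 CPM in shluc libraries. There the shEZH2#1 libraries were the highest of the 9, again without a call against shluc (0.40 ± 0.16, adjusted p = 0.0812). The ubiquitin receptor PSMD4 and the lid subunits PSMD3 and PSMD13 were not called with either hairpin, at log2 fold changes between -0.26 and 0.28.

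Of the chaperones of the 19S base, PSMD5 and PSMD10 fell with shEZH2#3 and PSMD9 was not called. PSMD5 had 21.5, 20.9 and 17.1 CPM in shEZH2#1 libraries, 8.92, 10.4 and 13.9 CPM in shEZH2#3 libraries, and 15.8, 19.7 and 18.3 CPM in shluc libraries. PSMD10, also known as the oncoprotein gankyrin, had 15.9, 15.2 and 13.4 CPM in shEZH2#1 libraries, 9.21, 10.7 and 9.72 CPM in shEZH2#3 libraries, and 12.9, 17.5 and 17.9 CPM in shluc libraries. The shEZH2#3 libraries lay below every shluc library in both, and the log2 fold changes were -0.69 ± 0.18 (adjusted p = 0.00524) and -0.70 ± 0.17 (adjusted p = 0.0032). Among the 4 chaperones of the 20S core, PSMG1 and PSMG2 fell and PSMG3 rose with shEZH2#3. PSMG1 had 23.5, 23.6 and 19.6 CPM in shEZH2#1 libraries, 15.3, 15.0 and 16.4 CPM in shEZH2#3 libraries, and 21.8, 20.1 and 27.6 CPM in shluc libraries, and stood at log2 fold changes of -0.58 ± 0.16 (adjusted p = 0.00827) with shEZH2#3 and -0.06 ± 0.16 (adjusted p = 0.842) with shEZH2#1.

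PSMG2, the partner of PSMG1 in alpha-ring assembly, had 9.13, 7.91 and 6.17 CPM in shEZH2#1 libraries, 8.35, 7.92 and 6.91 CPM in shEZH2#3 libraries, and 10.1, 12.3 and 11.4 CPM in shluc libraries. Both hairpin groups lay below every shluc library. PSMG2 stood at -0.54 ± 0.19 (adjusted p = 0.0482) with shEZH2#1 and -0.55 ± 0.19 (adjusted p = 0.0225) with shEZH2#3. The call with shEZH2#1 held under 7 of 22 alternative settings. It was lost without replicate 2 or 3 of shEZH2#1, replicate 2 or 3 of shEZH2#3 or any single shluc library, at adjusted p between 0.0553 and 0.218. The call with shEZH2#3 was lost without its replicate 2 or 3 or without shluc replicate 2, at adjusted p between 0.0507 and 0.0853. PSMG2 overlaps SPIRE1 and CEP76 on the opposite strand, so its reads are uncertain. PSMG3 changed by 0.51 ± 0.20 (adjusted p = 0.0427) with shEZH2#3, with libraries that overlapped shluc, and that call held under 9 of 22 alternative settings and was lost after GC content and length correction.

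Of the activators, PSME1 rose with shEZH2#3, PSME3 fell with shEZH2#1 and PSME4 fell with shEZH2#3. PSME1 (ENSG00000092010), the alpha subunit of the interferon-responsive PA28 activator, had 167, 202 and 187 CPM in shEZH2#1 libraries, 383, 244 and 249.7 CPM in shEZH2#3 libraries, and 146, 123 and 184 CPM in shluc libraries. All shEZH2#3 libraries were above all others, the first of them far above. PSME1 rose by 0.95 ± 0.19 (adjusted p = 0.000636) with shEZH2#3 and was not called with shEZH2#1 (0.29 ± 0.19, adjusted p = 0.285). Without the first shEZH2#3 and second shluc libraries the value with shEZH2#3 was 0.58 (adjusted p = 0.00293), against 0.95 with all libraries. PSME2, the beta subunit of the same activator, had 65.4, 58.6 and 62.2 CPM in shEZH2#1 libraries, 69.2, 61.3 and 72.2 CPM in shEZH2#3 libraries, and 58.6, 50.6 and 81.7 CPM in shluc libraries. The groups overlapped throughout and PSME2 was not called with either hairpin, at -0.04 ± 0.17 (adjusted p = 0.902) and 0.09 ± 0.17 (adjusted p = 0.689). After GC content and length correction PSME2 was called lower with shEZH2#3, at -0.42 (adjusted p = 0.0166), the opposite side of 0. PSME2 overlaps RNF31 on the opposite strand, which had 95.0% of its mean count, so reads of the pair may be mixed.

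The PSME1/PSME2 ratio, added after the data were seen, was 2.55, 3.44 and 3.00 in shEZH2#1 libraries, 5.53, 3.98 and 3.46 in shEZH2#3 libraries, and 2.49, 2.42 and 2.26 in shluc libraries. The 3 groups did not overlap. The ratio was 1.25-fold higher with shEZH2#1 and 1.77-fold higher with shEZH2#3 than with shluc, each at the smallest exact permutation p of 0.1.

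PSME3, which forms the nuclear activator PA28-gamma, fell with shEZH2#1 and had 107, 108 and 114 CPM in shEZH2#1 libraries, 155, 181 and 173 CPM in shEZH2#3 libraries, and 208, 201 and 156 CPM in shluc libraries. The shEZH2#1 libraries were below all others, and shEZH2#3 overlapped shluc. Its log2 fold change was -0.78 ± 0.15 (adjusted p = 0.00163) with shEZH2#1 and -0.15 ± 0.15 (adjusted p = 0.425) with shEZH2#3. PSME4, the activator linked to histone turnover and DNA repair, fell with shEZH2#3 and had 16.0, 15.2 and 15.4 CPM in shEZH2#1 libraries, 7.89, 9.54 and 9.0 CPM in shEZH2#3 libraries, and 15.5, 20.4 and 15.8 CPM in shluc libraries. Its shEZH2#3 libraries were the lowest of the 9, at -0.97 ± 0.17 (adjusted p = 0.000226), while with shEZH2#1 the value was -0.15 ± 0.16 (adjusted p = 0.557). PSMF1, a proteasome inhibitor subunit, rose with shEZH2#3 and had 74.0, 83.2 and 78.9 CPM in shEZH2#1 libraries, 103, 119 and 105 CPM in shEZH2#3 libraries, and 87.9, 81.1 and 77.8 CPM in shluc libraries. The shEZH2#3 libraries were above all others, by 0.40 ± 0.14 (adjusted p = 0.0238). That call was lost with upper quartile scaling (0.23, adjusted p = 0.108), without shEZH2#3 replicate 2 (0.33, adjusted p = 0.12) and without shluc replicate 3 (0.36, adjusted p = 0.0633).

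The hairpins were also compared directly. No shluc mean enters this difference, but the shluc libraries entered the shared estimate of spread in the fit. Of 47 tested genes, 22 differed (46.8%), against 25.0% of all tested genes: 17 were higher with shEZH2#1 (36.2%, against 9.46%) and 5 lower (10.6%, against 15.5%). The median log2 fold change of shEZH2#1 over shEZH2#3 was 0.27, against 0.01 over all tested genes. Upper quartile scaling, which moves the median of all genes to 0.18, gave 26 higher and 2 lower. Among the 19S subunits, 10 of 17 were higher with shEZH2#1 and PSMD2 was lower. The largest difference was that of PSMD7, at 0.89 ± 0.14 (adjusted p = 0.000167), followed by PSMD5 at 0.84 ± 0.18 (adjusted p = 0.00231) and PSMA4 at 0.83 ± 0.18 (adjusted p = 0.00278). The 5 genes lower with shEZH2#1 were PSMB2, PSMD2, PSME1, PSME3 and PSMF1. PSME1 differed by -0.66 ± 0.19 (adjusted p = 0.0147), PSME3 by -0.63 ± 0.15 (adjusted p = 0.00474) and PSMF1 by -0.47 ± 0.14 (adjusted p = 0.0187). Leaving out 1 library changed the count to 9 without shEZH2#1 replicate 1, to 12 without shEZH2#1 replicate 2 or shEZH2#3 replicate 2, and to 14 without shEZH2#3 replicate 3. The calls of PSMA4, PSMB2, PSMC1, PSMD5, PSMD7, PSMD11, PSMD12, PSME3 and PSME4 held without any single library, and those of the other 13 genes were lost without at least 1.

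Fold change followed the base composition of the transcripts. Across the 47 genes the rank correlation of log2 fold change with GC content, given as a description, was 0.53 with shEZH2#1, 0.73 with shEZH2#3 and -0.50 for shEZH2#1 over shEZH2#3. Over 12949 tested genes with a GC value it was 0.47, 0.69 and -0.41. All genes were measured in the same libraries. The 19 proteasome genes that fell with shEZH2#3 had a median GC content of 44.2%, and the other 28 had 52.9%. The share of mitochondrial transcripts also differed, at 1.47 to 1.73% in shEZH2#1 libraries, 5.22 to 7.31% in shEZH2#3 libraries and 3.19 to 4.12% in shluc libraries, and its part in the results was not tested.

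A smooth correction of each library for GC content and length brought those correlations to -0.05, -0.07 and 0.03. With shEZH2#3, 20 genes were then called, against 24.4% of all genes. Of these, 3 were higher (12.3% of all genes) and 17 lower (12.1% of all genes), and 9 of them were among the 19 called before (47.4% of the 19 and 52.9% of the 17). The 9 were PSMA7, PSMC1, PSMD1, PSMD6, PSMD7, PSMD11, PSMD12, PSMD14 and PSMG2. Lower calls were lost for PSMA2, PSMA3, PSMA4, PSMC2, PSMC6, PSMD5, PSMD10, PSME4, PSMG1 and PSME3IP1. They were gained for PSMB6, PSMB10, PSMC3, PSMC5, PSMD3, PSMD4, PSMD8 and PSME2. Of the 3 higher calls PSMB2 was gained, at 0.74, and that of PSMG3 was lost. After correction 12 of the 17 subunits of the 19S particle were called lower with shEZH2#3, with a median of -0.43. Corrected values were -0.77 (adjusted p = 0.000149) for PSMD7, -0.77 (adjusted p = 0.000214) for PSMD11 and -0.66 (adjusted p = 0.0122) for PSMD14. PSME1 remained called higher with shEZH2#3 at 0.61 (adjusted p = 0.00183), as did PSMF1 at 0.65 (adjusted p = 0.000529). With shEZH2#1 all 4 original calls were kept, including 0.63 (adjusted p = 0.00716) for PSMB9, 0.36 (adjusted p = 0.0232) for PSMB10 and -0.60 (adjusted p = 0.00119) for PSME3, and PSMA1 and PSMD2 were added as lower. That made 2 higher and 4 lower, beside 8.04% and 10.2% of all genes, and 18.2% called in all. Between hairpins 20 were higher and 5 lower with shEZH2#1, beside 13.0% and 14.9% of all genes, and 27.9% called in all. The higher calls of PSMA2, PSMC2 and PSMD10 and the lower call of PSMD2 were lost between hairpins. Higher calls were gained for PSMA7, PSMB6, PSMB7, PSMB9, PSMC3 and PSMD9, and a lower call for PSMA1.

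**Figure D4:**
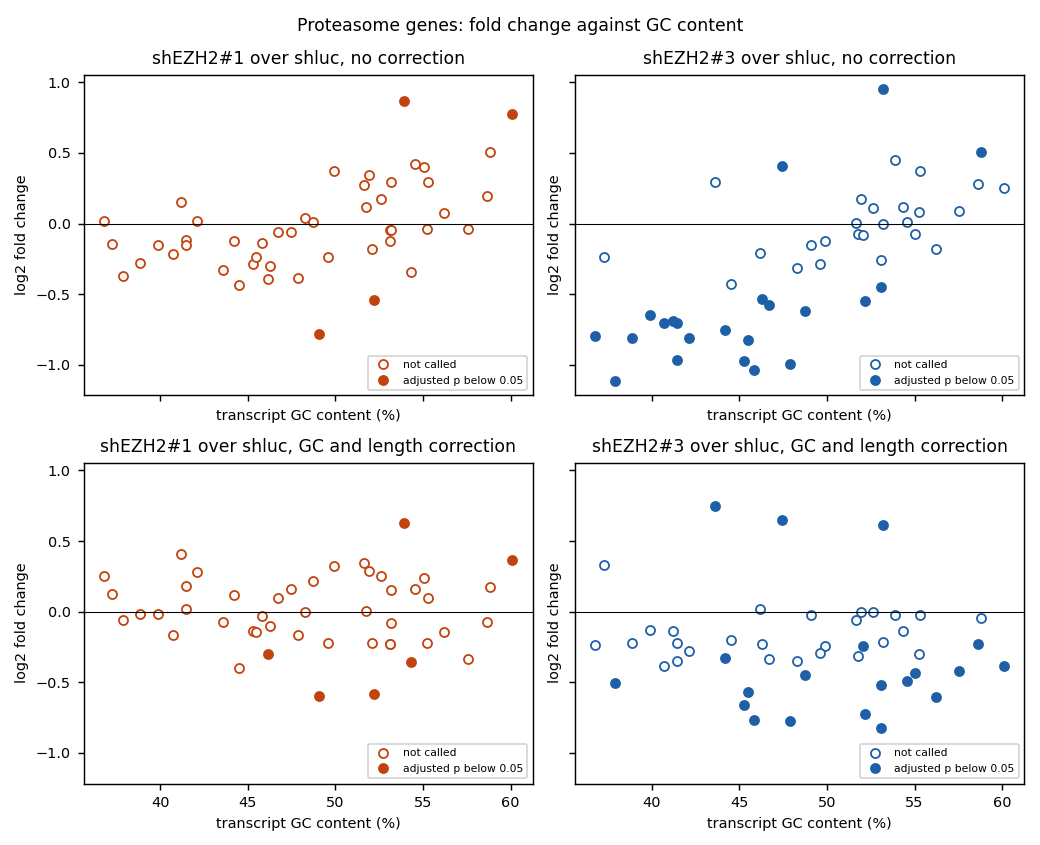
Log2 fold change (y axis) of the 47 tested proteasome genes against GC content of the longest protein-coding transcript (x axis, percent), for shEZH2#1 over shluc on the left and shEZH2#3 over shluc on the right, before correction (top) and after (bottom). The upward slope of the top panels (rank correlation 0.53 and 0.73) is absent in the bottom panels (-0.05 and -0.07), where filled points remain below 0 on the right.

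Levels between genes were compared per transcript length, as TPM, which divides counts by transcript length and by depth, in shluc libraries. They ran from 1186 ± 170 TPM (SD, n = 3) for the structural beta subunit PSMB4 down to 4.97 ± 0.311 TPM for the chaperone PSMG4. The order depends on the length used, that of the longest protein-coding transcript, which is 4603 bases for PSMG4. By mean CPM in shluc, PSMC3IP (6.98) and PSMC6 (8.09) lay below PSMG4 (8.73). Which transcripts were expressed was not tested. PSMC3 followed PSMB4 with 1015 ± 24.2 TPM, and the 3 constitutive catalytic subunits lay between 436 and 733 TPM. The inducible subunits were well expressed in these control cells, with PSMB8 at 397 TPM, PSMB9 at 189 TPM and PSMB10 at 105 TPM. Of the 46 neighbouring pairs in this order, 4 were apart by more than their summed SDs, so most neighbours could not be ranked. ATPases that join the same ring in equal number ranged from 9.97 TPM for PSMC6 to 1015 TPM for PSMC3. TPM in shluc and GC content had a rank correlation of 0.63 over the 47 genes, given as a description; the part of base composition in these levels was not tested.

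Levels were also summed per class, where a test of 3 libraries against 3 could not pass 0.05. The inducible class summed to 451, 436 and 438 CPM in shEZH2#1 libraries, 389, 379.6 and 442 CPM in shEZH2#3 libraries, and 333, 227 and 378 CPM in shluc libraries. Both hairpin groups lay above all controls, at 1.44-fold and 1.32-fold. The activator and inhibitor class summed to 429, 467 and 457 CPM in shEZH2#1 libraries, 717, 615 and 609 CPM in shEZH2#3 libraries, and 516, 476 and 515 CPM in shluc libraries. It was lower with shEZH2#1 (0.898-fold) and higher with shEZH2#3 (1.29-fold). The alpha ring with shEZH2#3 was at 0.763-fold of shluc. Each of these 5 comparisons gave the smallest exact permutation p of 0.1 (adjusted p = 0.3 over 27 tests). The sums were not corrected for GC content and length. With that correction the median log2 fold change of tested inducible subunits was 0.36 with shEZH2#1 and -0.02 with shEZH2#3, against 0.78 and 0.37 before. In the alpha ring it was -0.20 with shEZH2#3, against -0.45 before.

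Genes around the proteasome were read from 5 lists: 13 assembly and transcription factors, 12 associated receptors and deubiquitinases, 14 ubiquitin and E1 genes, 17 VCP and shuttle factors, of which 16 were tested, and 16 interferon-linked neighbours and regulators of the inducible subunits. Of all tested genes, 11.2% were called higher and 7.89% lower with shEZH2#1, and 24.4% and 19.8% with shEZH2#3. Of the assembly and transcription factors, 5 fell (38.5%) and none rose with shEZH2#1, and likewise 5 fell and none rose with shEZH2#3. Of the receptors and deubiquitinases, shEZH2#1 gave 1 higher and 2 lower, and shEZH2#3 gave 6 lower. Of the ubiquitin and E1 genes, 1 was higher with the first hairpin, and with shEZH2#3 there were 4 higher and 3 lower. Of the VCP and shuttle factors, 1 was higher and 2 were lower with shEZH2#1, against 4 higher and 8 lower with shEZH2#3. The interferon-linked list had 3 higher and 1 lower with shEZH2#1, and 9 higher and 2 lower with shEZH2#3. Over the 71 tested list genes 22.5% were called with shEZH2#1 and 57.7% with shEZH2#3, beside 19.0% and 44.2% of all genes. After GC content and length correction, the 71 genes gave 4 higher and 11 lower calls with shEZH2#1, against 6 and 10 before. With shEZH2#3 they gave 7 higher and 15 lower calls, against 17 and 24 before. Of all tested genes, 8.04% were then called higher and 10.2% lower with shEZH2#1, and 12.3% and 12.1% with shEZH2#3. With shEZH2#3 the corrected calls were 7 lower among assembly and transcription factors and 3 lower among receptors and deubiquitinases. They were 3 higher and 2 lower among ubiquitin and E1 genes, 3 lower among VCP and shuttle factors, and 4 higher among interferon-linked genes.

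NFE2L1, the activator of proteasome genes, was not called with either hairpin, at -0.24 ± 0.15 (adjusted p = 0.279) and -0.02 ± 0.15 (adjusted p = 0.942). It had 177, 184 and 189 CPM in shEZH2#1 libraries, 201, 235 and 206 CPM in shEZH2#3 libraries, and 239, 230.5 and 179 CPM in shluc libraries, with overlapping groups. The related factor NFE2L2 fell with both and had 10.1, 9.54 and 8.30 CPM in shEZH2#1 libraries, 5.72, 8.11 and 6.85 CPM in shEZH2#3 libraries, and 11.8, 16.1 and 13.0 CPM in shluc libraries. Its log2 fold changes were -0.55 ± 0.19 (adjusted p = 0.0425) with shEZH2#1 and -0.99 ± 0.19 (adjusted p = 0.000454) with shEZH2#3, the first lost after GC content and length correction. POMP, the maturation factor of the 20S core, was not called, at -0.18 ± 0.19 (adjusted p = 0.525) and -0.32 ± 0.19 (adjusted p = 0.177). AKIRIN2, which carries proteasomes into the nucleus, fell with shEZH2#1 (-0.61 ± 0.17, adjusted p = 0.017) and was not called with shEZH2#3 (-0.41 ± 0.17, adjusted p = 0.0561). After GC content and length correction 2 of these genes were newly called lower with shEZH2#3. They were NFE2L1, at -0.29 (adjusted p = 0.0365), and AKIRIN2, at -0.70 (adjusted p = 0.00728).

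Among regulators of the inducible subunits, NLRC5 and IRF9 rose with both hairpins. NLRC5 (ENSG00000140853), the transactivator of MHC class I genes, had 145, 124 and 145 CPM in shEZH2#1 libraries, 64.8, 83.5 and 73.6 CPM in shEZH2#3 libraries, and 56.7, 49.0 and 50.2 CPM in shluc libraries. Both hairpin groups lay above shluc, shEZH2#1 the further, at 1.41 ± 0.15 (adjusted p = 8.57e-06) and 0.51 ± 0.15 (adjusted p = 0.00966), and their difference was called at 0.90 ± 0.15 (adjusted p = 0.000196). IRF9, a DNA-binding part of the interferon-activated complex that reads the ISRE, had 30.7, 22.2 and 30.2 CPM in shEZH2#1 libraries, 13.3, 12.0 and 15.9 CPM in shEZH2#3 libraries, and 10.3, 7.66 and 9.82 CPM in shluc libraries. It rose by 1.58 ± 0.18 (adjusted p = 2.63e-05) with shEZH2#1 and 0.57 ± 0.18 (adjusted p = 0.0166) with shEZH2#3, a difference of 1.01 ± 0.18 (adjusted p = 0.000433). After GC content and length correction the calls with shEZH2#3 were lost for both genes, while those with shEZH2#1 were kept. IRF1 was not called with either, at 0.16 ± 0.15 (adjusted p = 0.501) and 0.36 ± 0.15 (adjusted p = 0.0612).

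TAP1, the divergent neighbour of PSMB9 whose promoter window shares bases with its own, differed from it in pattern. It had 156, 164 and 182 CPM in shEZH2#1 libraries, 230.5, 304 and 343 CPM in shEZH2#3 libraries, and 221, 164 and 186 CPM in shluc libraries. The shEZH2#1 libraries were within or just below the shluc range, and the shEZH2#3 libraries were above every other library. TAP1 rose by 0.62 ± 0.17 (adjusted p = 0.00626) with shEZH2#3, was not called with shEZH2#1 (-0.18 ± 0.17, adjusted p = 0.474), and differed by -0.81 ± 0.17 (adjusted p = 0.00169) for shEZH2#1 over shEZH2#3. PSMB9 had the opposite order of hairpins, although its own difference between them was not called (0.42 ± 0.19, adjusted p = 0.117). After GC content and length correction the call of TAP1 with shEZH2#3 was lost, at 0.20 (adjusted p = 0.255), and the difference between hairpins was -0.56 (adjusted p = 0.00293) for TAP1 and 0.65 (adjusted p = 0.0035) for PSMB9. The other transporter gene, TAP2, was not called with either hairpin, at -0.27 ± 0.19 (adjusted p = 0.344) and -0.17 ± 0.19 (adjusted p = 0.474).

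Other list genes called in the same direction with both hairpins included UBA7, the ISG15-activating enzyme, at 0.83 ± 0.27 (adjusted p = 0.0382) and 1.33 ± 0.27 (adjusted p = 0.000719). The ubiquitin ligase UBE3A fell, at -0.82 ± 0.20 (adjusted p = 0.00735) and -1.01 ± 0.20 (adjusted p = 0.000599). The adaptor SEL1L of endoplasmic reticulum degradation also fell, at -0.77 ± 0.22 (adjusted p = 0.0192) and -1.04 ± 0.22 (adjusted p = 0.00118). After correction the calls of UBA7 with shEZH2#1, of UBE3A with shEZH2#3 and of SEL1L with both were lost. Markers of leukocytes summed to 33.4 to 39.5 CPM in shEZH2#1 libraries, 69.8 to 83.3 CPM in shEZH2#3 libraries and 41.3 to 50.0 CPM in shluc libraries over 8 genes. PTPRC, CD3E and TYROBP, which define leukocytes, were at 0 in every library, and ITGB2 made up most of the sum. Fibroblast markers summed to 53.9 to 62.4 CPM in shEZH2#1 libraries, 79.5 to 118 CPM in shEZH2#3 libraries and 59.5 to 68.3 CPM in shluc libraries over 6 genes, with COL1A2 at 0. Endothelium markers summed to 7.97 to 8.29 CPM in shEZH2#1 libraries, 28.4 to 32.7 CPM in shEZH2#3 libraries and 13.8 to 19.8 CPM in shluc libraries over 3 genes, nearly all from CDH5, with KDR at 0. CDH5 fell with shEZH2#1 (-1.20 ± 0.18, adjusted p = 0.000222) and rose with shEZH2#3 (0.78 ± 0.17, adjusted p = 0.00121). The part of these marker genes in the results was not tested.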

How the data were processed

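Per the labels' protocols, polyadenylated RNA was made into strand-marked libraries, and the submitters' processing notes name fastp, HISAT2, StringTie and build GRCh38 (hg38), without versions. The authors deposited estimated counts per Ensembl gene without normalization: 14.7 to 18.6% of the nonzero values carried decimals, and totals ran from 14958011 to 21152006. No source used here gives the counting tool, its annotation, its strand setting or how reads with several alignments were handled. The 9 single-library files held the same values as the table of the whole series.

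Counts were rounded to whole numbers, filtered with filterByExpr (13252 genes kept) and fitted in R 4.3.3 with edgeR 4.0.16: TMM scaling, 1 quasi-likelihood fit of all 9 libraries with 3 groups, no block, and Benjamini-Hochberg adjustment over all genes at 0.05. CPM used the TMM-scaled totals. TPM, GC content and length used the longest GENCODE 29 protein-coding transcript of each gene. Ratios added 0.5 to both counts, and ratios and class sums were compared by exact two-sided permutation of 20 splits. Alternatives were scaling by RLE or by upper quartile, limma 3.58.1 (voom), DESeq2 1.42.0, other filters, only the groups compared, a replicate block, a smooth of log counts on GC content and length per library (span 0.3) used as an offset, library totals without abundant genes, and leaving out each library.

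On simulated counts of 12983 genes for shEZH2#1 against shluc, 98 genes were changed by 1 and 96 by 0.5 on the log2 scale. Of these, 48.0% and 5.21% were recovered, with 6 false calls. In the data 2523 genes were called in that comparison. The adjusted threshold depends on how many genes change, so these shares do not carry over to the data. Depth and 3 libraries per group limit what small changes can be seen, and counting floors cover counting error only. No pair of libraries within a group differed by as little as sampling noise (chi-square per degree of freedom from 15.7 to 84.0).

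The members, gene lists and classes were chosen with earlier results of these data known. Named with values in every library were the catalytic subunits PSMB5 to PSMB10, PSME1 to PSME4, genes called with both hairpins in the same direction and genes called between hairpins. Of the list genes, those named were the main regulators and the 6 with the largest mean change among genes called with both hairpins, of which some are not reported here. PSMB3 was not analysed here, and 51 further symbols of the same pattern were not protein-coding.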

Additional observations from a re-analysis of the deposited data

Results flagged for a closer look

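The effect of the hairpins on 22 proteasome genes differed by the direct test of shEZH2#1 against shEZH2#3 (edgeR's quasi-likelihood test, adjusted p below 0.05, 25.0% of all tested genes). The log2 fold change of shEZH2#1 over shEZH2#3 was higher for 17 genes. Among 19S subunits it was 0.63 for PSMC1, 0.53 for PSMC2, 0.81 for PSMC6, 0.63 for PSMD1, 0.59 for PSMD6, 0.89 for PSMD7, 0.47 for PSMD8, 0.61 for PSMD11, 0.74 for PSMD12 and 0.69 for PSMD14. Among chaperones it was 0.84 for PSMD5, 0.59 for PSMD10 and 0.52 for PSMG1. Among core subunits and activators it was 0.49 for PSMA2, 0.83 for PSMA4, 0.53 for PSMB10 and 0.82 for PSME4. It was lower for 5 genes, at -0.62 for PSMB2, -0.46 for PSMD2, -0.66 for PSME1, -0.63 for PSME3 and -0.47 for PSMF1. With GC content and length corrected, 4 of these calls were lost, at 0.12 for PSMA2, 0.21 for PSMC2, 0.24 for PSMD10 and -0.22 for PSMD2.

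Outside the protein-coding genes, 4 of 51 symbols of the same pattern passed the filter on low counts. PSMG3-AS1, a noncoding gene overlapping PSMG3 on the opposite strand, had 4.11, 2.90 and 4.19 CPM in shEZH2#1 libraries, 4.52, 3.37 and 4.92 CPM in shEZH2#3 libraries, and 1.61, 1.75 and 2.49 CPM in shluc libraries. Every hairpin library lay above every control. On the log2 scale it was higher by 0.93 in shEZH2#1 cells (adjusted p = 0.0227) and by 1.13 in shEZH2#3 cells (adjusted p = 0.00283). After GC content and length correction neither was called (adjusted p = 0.0749 and 0.0748). With an unknown strand setting, its reads and those of PSMG3 cannot be told apart.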

How the results depend on the processing

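Of 66 recomputed counts of called genes, 60 stayed within 1.5 times the reported count. Of 96 recomputed log2 ratios, 5 changed sign, each between hairpins and none of them over 0.08 from 0 afterwards. A stricter filter gave 9 calls with shEZH2#1. Leaving out single libraries gave 3 to 8 calls with shEZH2#1, 19 to 23 with shEZH2#3 and 9 to 26 between hairpins. Upper quartile scaling moved the median of all genes to -0.18 with shEZH2#3 and to 0.18 between hairpins, and gave 1 higher and 24 lower calls with shEZH2#3. Under it the log2 difference of summed levels with shEZH2#3 became -0.56 for the alpha ring, against -0.39 with TMM scaling. With the TMM value in parentheses, it became -0.31 (-0.14) for ATPases and -0.24 (-0.07) for non-ATPases. For regulatory particle chaperones it became -0.35 (-0.18) and for activators 0.19 (0.36). Between hairpins, again with the TMM value in parentheses, it became 0.35 (0.19) for the alpha ring. For beta subunits it became 0.17 (0.01) in structural, 0.51 (0.345) in constitutive and 0.30 (0.13) in inducible ones. It became 0.32 (0.15) for ATPases and 0.18 (0.01) for non-ATPases. For chaperones it became 0.55 (0.38) in 19S and 0.25 (0.09) in 20S, and for activators -0.35 (-0.52). ATPases stood at 0.20 without the 2 abundant unnamed genes. GC content and length correction turned the direction with shEZH2#3 of PSMB10 (-0.38, and -0.39 with the replicate block), PSMB6 (-0.49 and -0.50) and PSME2 (-0.42 in both); the cause was not tested. Replicate numbers did not pair the libraries (correlations of same-numbered deviations from -0.12 to 0.08). With the replicate block 4, 22 and 20 genes were called with shEZH2#1, with shEZH2#3 and between hairpins, and with block and correction 6, 18 and 26. Of 2835 recomputed fold changes of named genes, 2588 kept their side of the threshold, 170 lost the call, 71 gained it and 6 turned with a call. Of the 2588, 88 that were called in neither fit changed sign at values rounded to 2 decimals, 32 of them with GC content and length correction, and reached at most 0.20 from 0.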
